A study of Mus musculus with 20 samples.

Results

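The tumor necrosis factor (TNF) superfamily and its receptors were followed in knee joints with surgically induced osteoarthritis. The members were taken by gene name, as every gene of the deposited table named Tnf, Tnfsf, Lta, Ltb, Fasl, Cd40lg or Cd70 among the ligands and Tnfrsf, Ltbr, Fas, Cd27, Cd40 or Eda2r among the receptors, and the 3 genes of the RANKL axis (Tnfsf11, Tnfrsf11a and Tnfrsf11b) were left out. This gave 35 of the 14793 genes in the table, with 12 ligands and 23 receptors. The ligands Tnfsf4, Cd40lg, Cd70 and Tnfsf18 are not listed in that table, so they could not be analysed here. Bulk RNA sequencing had been performed on the operated knee of 20 male C57BL/6Nci mice, 12 weeks of age at the start of the study, and every mouse had undergone destabilization of the medial meniscus (DMM), a surgical model of osteoarthritis. The whole knee had been taken, with synovium, capsule, cartilage and the adjoining bone of femur and tibia. Control joints received needle insertion alone, and MSC joints received 250000 non-activated adipose-derived mesenchymal stromal cells at each of the injections in weeks 3 and 5 after surgery. TLR3-MSC and STING-MSC joints received the same number of cells on the same schedule, after exposure in culture, at 10 µg/mL over 2 h, to pIC (polyinosinic-polycytidylic acid, a TLR3 agonist) or to 2′,3′-cGAMP (a STING agonist). Each group held 5 joints from different mice, and all cells came from a single donor pool. Cells were injected in phosphate buffered saline, whereas control joints received no injected fluid. Against control, effects of the cells and of the fluid therefore cannot be told apart. The study's methods place tissue collection 8 weeks after surgery, whereas another passage of the study places it a day after injection, so the interval between the last injection and the measurement is uncertain.

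Ligands of the TNF superfamily are mostly trimeric membrane proteins that can be shed from the cell surface, and their receptors fall into those with a cytoplasmic death domain, those that recruit TRAF adaptors and those that lack a signalling tail and act as decoys. TNF itself signals through Tnfrsf1a, which most cells carry, and Tnfrsf1b, which is found mainly on leukocytes and endothelium. In joints, TNF from synovial macrophages is known as a driver of inflammation and of matrix-degrading enzymes, while BAFF (Tnfsf13b) keeps B cells alive, lymphotoxin organizes lymphoid tissue and Fas ligand and TRAIL (Tnfsf10) can trigger apoptosis.

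The sequences upstream of the 5 members that were higher in MSC than in control joints are shown first, since these genes recur in the results. RefSeq windows (GRCm38.p6) of 250 bases upstream of a transcript start were available for 29 of the 35 members, and those of the 5 genes were placed on GRCm39 by exact match. Bases that lie inside an annotated gene were trimmed away, except for some sites of 30 bases around a motif. Capitals mark a motif found on either strand: TTCCNGGAA (the letters of a STAT site), TGANTCA (AP-1), the core of an interferon-stimulated response element (GAAA, any 2 bases and GAAA again) or the NF-kB consensus. The upstream stretches of Tnfrsf1b (chr4:144973478-144973690, minus strand), Tnfsf13b (chr8:10056217-10056466, plus strand), Fas (chr19:34267809-34268000, plus strand), Ltb (chr17:35413233-35413381, plus strand) and Tnfsf14 (chr17:57501182-57501431, minus strand) read 5′ to 3′ as follows.
Tnfrsf1b: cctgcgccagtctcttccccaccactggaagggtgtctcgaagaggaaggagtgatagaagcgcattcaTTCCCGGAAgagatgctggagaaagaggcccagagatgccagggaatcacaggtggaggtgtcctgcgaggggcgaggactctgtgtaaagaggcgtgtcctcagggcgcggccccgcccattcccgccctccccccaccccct
Tnfsf13b: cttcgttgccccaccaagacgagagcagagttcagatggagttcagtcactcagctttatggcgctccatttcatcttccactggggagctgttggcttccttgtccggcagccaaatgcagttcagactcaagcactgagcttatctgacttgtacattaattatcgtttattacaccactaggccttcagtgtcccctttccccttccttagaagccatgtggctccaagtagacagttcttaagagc
Fas: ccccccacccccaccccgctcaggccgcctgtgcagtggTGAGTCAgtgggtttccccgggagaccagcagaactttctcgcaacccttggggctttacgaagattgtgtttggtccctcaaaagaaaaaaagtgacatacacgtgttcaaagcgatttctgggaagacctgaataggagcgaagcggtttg
Ltb: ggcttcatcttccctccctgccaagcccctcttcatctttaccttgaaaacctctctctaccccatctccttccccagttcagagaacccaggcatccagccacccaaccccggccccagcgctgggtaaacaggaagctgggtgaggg
Tnfsf14: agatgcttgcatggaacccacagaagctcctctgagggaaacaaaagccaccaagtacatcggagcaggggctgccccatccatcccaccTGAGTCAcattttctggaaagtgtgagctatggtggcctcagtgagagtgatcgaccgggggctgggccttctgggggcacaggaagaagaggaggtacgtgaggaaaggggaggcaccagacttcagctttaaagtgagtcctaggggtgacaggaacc
The TGANTCA site of Tnfsf13b, 127 to 121 bases upstream of its second RefSeq start, is not printed. Sites of 30 bases closer to the start are given for Tnfrsf1b (chr4:144973441-144973470, minus strand), for the second RefSeq start of Tnfsf13b (chr8:10056603-10056632, plus strand) and for Ltb (chr17:35413386-35413415, plus strand).
Tnfrsf1b, interferon-stimulated response element core: cctagctcctggcctgagggTTTCGCTTTC
Tnfsf13b, interferon-stimulated response element core: atcttacaaaaactGAAAGTGAAAtgcgga
Ltb, NF-kB consensus: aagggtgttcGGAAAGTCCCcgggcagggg

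Over all windows, the letters of the interferon-stimulated response element core were present upstream of Tnfrsf1b, Tnfsf13b, Tnfrsf14 and Tnfrsf17, which is 13.8% of the 29 members beside 3.46% of all 27025 genes with a window. TGANTCA was present for 6 members (20.7%, beside 7.82% of all genes), namely Fas, Tnfsf14, Tnfsf13b, Tnfsf13, Tnfrsf8 and Tnfrsf9. The TTCCNGGAA letters were found upstream of Tnfrsf1b alone among the members (3.45%, beside 1.09%). NF-kB consensus letters were present for Ltb, Tnfrsf8 and Tnfrsf9 (10.3%, beside 4.46%). The C/EBP letters TTGCNNAA were present for Eda2r and Tnfrsf23 (6.9%, beside 10.8%). These matches describe the letters only, and no test was made of them.

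A receptor, Tnfrsf1a, led the family in level. Because longer genes collect more reads, levels of different genes were compared as normalized counts per kb of exonic length, averaged over the 20 joints. Tnfrsf1a, the widely expressed TNF receptor, had 1641 per kb. Tnfrsf14 (the herpesvirus entry mediator, a receptor for the ligand Tnfsf14) followed with 924 per kb, and Ltbr, the lymphotoxin beta receptor, had 783 per kb. Tnfrsf21 (death receptor 6) had 710 per kb and Tnfrsf1b 630.3 per kb. Among the ligands, Ltb (lymphotoxin beta) was far ahead with 808 per kb, before Tnfsf14 (LIGHT) with 286 and Tnfsf12 (TWEAK) with 127 per kb. Tnf had 71.2 per kb and Tnfsf13b 69.6 per kb, and the TNF receptors Tnfrsf1a and Tnfrsf1b lay above Tnf on this scale. Of the receptors of Tnfsf13b, Tnfrsf13b (TACI, 300.2 per kb) and Tnfrsf13c (229 per kb) lay above it and Tnfrsf17 (22.1 per kb) below it. Before division by length, Tnfsf13b and Tnfrsf13c were alike, with means of 478 and 471 normalized counts, so their order rests on the lengths used. Tnfsf15 (TL1A) was lowest with 4.75 per kb, and Lta, Fasl and Tnfrsf8 (CD30) also lay under 10 per kb.

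**Figure D1:**
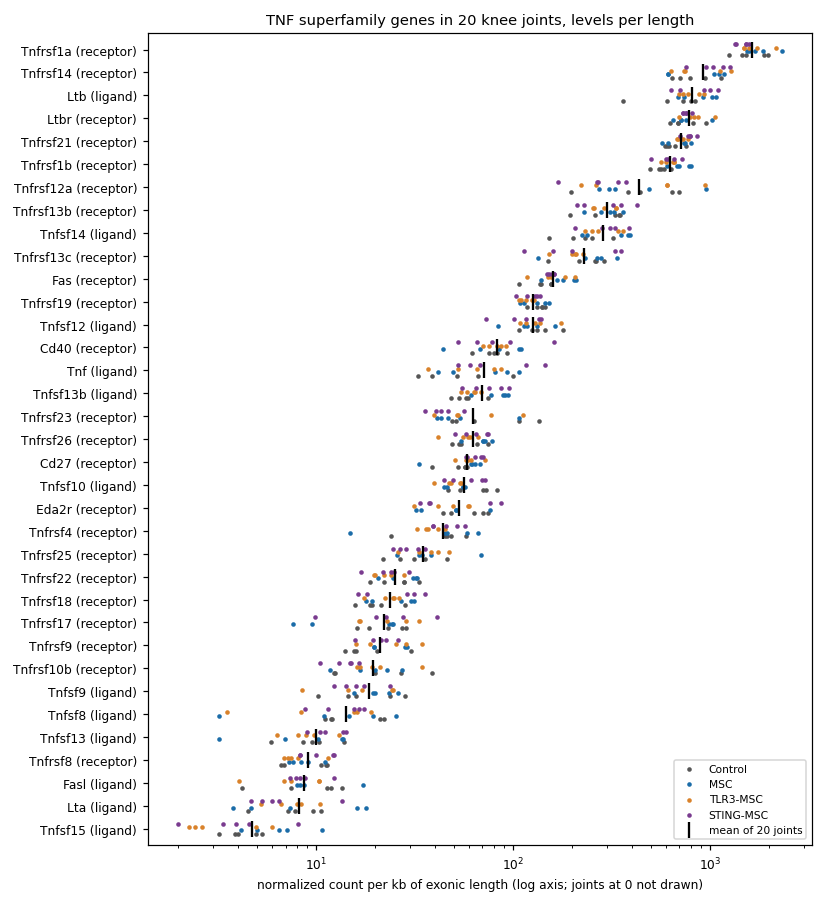
Normalized count per kb of exonic length (log axis) of the 35 members in each of the 20 joints, coloured by group, with the mean of the 20 joints as a black bar. Values at 0, those of Fasl and Tnfrsf9 in MSC joint 5, are not drawn. Tnfrsf1a stands first at 1641 per kb and Tnfsf15 last at 4.75 per kb, and the groups intermingle for most genes.

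Values of the members varied widely among joints of the same group. The median SD within groups was 0.38 on the log2 scale for the 35 members and 0.26 for all genes, with a median mean level of 237 normalized counts for the members and 853 for all genes. Joints held from 27955496 to 52529972 reads on the listed genes, and the least abundant member, Lta, averaged 13.3 normalized counts, so counting error weighs most on Lta, Fasl, Tnfsf13, Tnfrsf17, Tnfsf9 and Tnfsf15. MSC joint 5 listed 296 genes at 0, whereas the other joints listed at most 97. Fasl and Tnfrsf9 were among the genes at 0 in MSC joint 5, and these were the only 2 of the 700 member values at 0. Whether the reads were counted by strand is not stated. Exons of 17 of the 35 members overlap another annotated gene, Plekhg6 for Tnfrsf1a and Hcfc1r1 for Tnfrsf12a among them, so their counts are uncertain to that extent. Exons of Tnfsf12 and Tnfsf13 overlap Tnfsfm13 on the same strand, which counting by strand would not separate. In bulk tissue, fewer cells of a type and less RNA per cell cannot be told apart. The tissue included bone, and the share of bone and its marrow in each joint is not given. Blood cell markers therefore cannot be assigned to synovium or to marrow. Markers of blood cells, synovial lining, cartilage and bone were all present, those of skeletal muscle were high (summed levels from 688250 to 2856500 normalized counts), and the summed neutrophil markers, of which S100a8 and S100a9 are the most abundant, ran from 377780 to 673720 in control, 537980 to 918080 in MSC, 504490 to 780270 in TLR3-MSC and 540150 to 839130 in STING-MSC joints. Markers of fibroblasts and synovial lining summed to 344510 to 1139400 in control, 156140 to 928550 in MSC, 373660 to 809480 in TLR3-MSC and 156960 to 361350 in STING-MSC joints. In the same order, B cell markers summed to 10911 to 16264, 9669.8 to 17480.0, 10045 to 13920.0 and 8335.5 to 18252, and T and NK cell markers to 1286.8 to 3198, 1618.4 to 4126.3, 1896.9 to 2934.2 and 2447.6 to 3698.8, and none of the markers in these 4 lists was at 0 in any joint.

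Differences between the groups were small. Each member was tested in 6 pairwise comparisons with limma on log2(normalized count + 1), fitted over all genes and all 20 joints, and differences are given on that scale. Of the 210 member comparisons, 13 reached an unadjusted p of at most 0.05, in 10 different members, with fold changes from 1.16 to 1.84. With an FDR threshold of 0.05, limma called 0 members in every comparison, as did edgeR and DESeq2 on the recovered reads. No member combined an unadjusted p under 0.05 with a 2-fold change, beside 0.73% of all genes in MSC against control, 0.331% in TLR3-MSC against control, 2.06% in STING-MSC against control, 0.507% in STING-MSC against MSC, 0.399% in TLR3-MSC against MSC and 0.622% in STING-MSC against TLR3-MSC. Across the 4 groups, the limma F test gave an unadjusted p of at most 0.05 for Tnfsf13b, Tnfrsf1b and Tnfrsf21, which is 3 of 35 members beside 6.42% of all genes, with FDR values of 0.692, 0.699 and 0.765. All comparisons with control share the same 5 control joints, and those with MSC share the same 5 MSC joints, so values in them are not independent of each other.

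**Figure D2:**
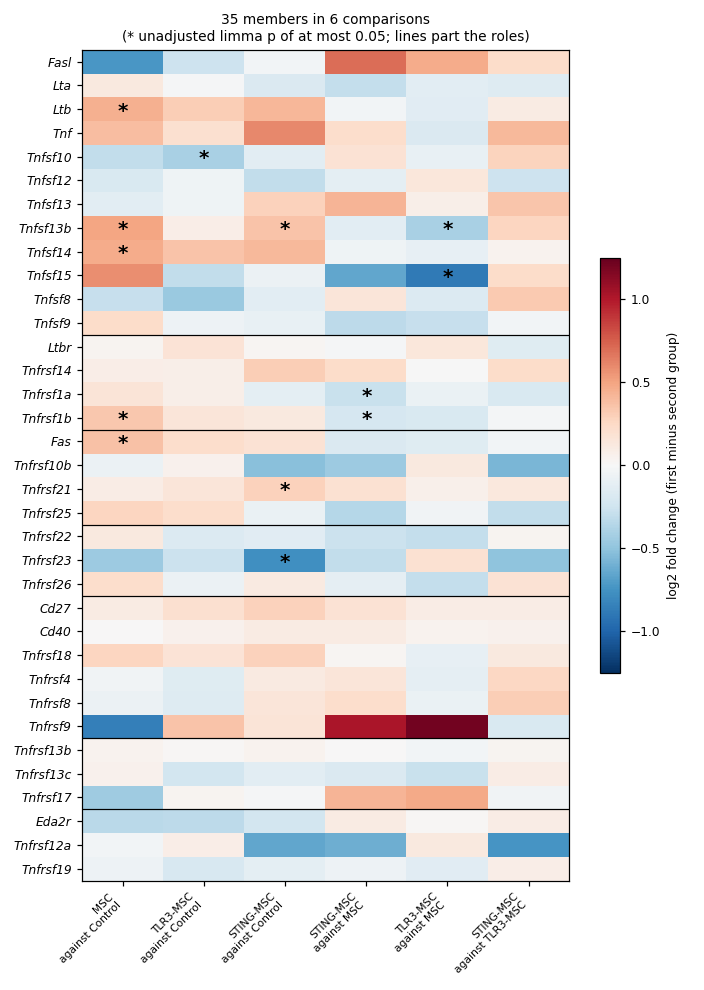
Log2 fold change (first minus second group, colour) of the 35 members in the 6 comparisons, grouped by role, with an asterisk where the unadjusted limma p is at most 0.05. Of the 13 asterisks, 5 lie in the comparison of MSC with control and 0 in that of STING-MSC with TLR3-MSC; the deep colours of Tnfrsf9 involve MSC joint 5, where that gene was listed at 0.

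The comparison of MSC with control joints asks what injection of non-activated cells in saline did beyond needle insertion. Here 5 members passed the unadjusted threshold, all higher in MSC joints, which is 14.3% of the members beside 8.55% of all genes in either direction (5.64% higher and 2.91% lower). They were the ligands Tnfsf13b, Ltb and Tnfsf14 and the receptors Tnfrsf1b and Fas. Their FDR values were 0.301 or more in limma, the smallest was 0.189 in edgeR and 0.0671 in DESeq2, and 1 gene of all tested (0.00676%) passed an FDR of 0.05 in limma. No member had groups without overlap (beside 1.11% of all genes). The median log2 fold change was 0.05 over the members and -0.04 over all genes.

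Tnfrsf1b, the leukocyte TNF receptor (ENSMUSG00000028599, chr4:144940033-144973441, minus strand), with positions here and below as deposited on GRCm39, had normalized counts of 2797, 2727, 3122, 2876 and 2450.1 in the control joints and 3866, 3459, 3986, 3352 and 3008 in the MSC joints. All MSC joints but joint 5 lay above every control joint. The means were 2794 ± 243 in control and 3534 ± 397 in MSC joints (SD, n = 5 each). The difference was 0.34 on the log2 scale (SE 0.10, unadjusted limma p = 0.00246, FDR = 0.301, exact permutation p = 0.0159), and it kept p at or under 0.05 in every setting tried. Without both MSC joints 2 and 5, a choice made after seeing the data, its FDR was 0.0459, and no other member had an FDR under 0.05 in that fit, where 425 of all genes passed (2.87%, beside 2.86% of the members). In TLR3-MSC joints Tnfrsf1b had counts of 3266, 2954, 2795, 3204 and 3237, and in STING-MSC joints 2973, 2476, 3574, 3031 and 3251, both overlapping the control range. Its exons overlap those of the antisense gene Gm68886.

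Tnfsf13b encodes BAFF, the survival factor of B cells (ENSMUSG00000031497, chr8:10056467-10089073, plus strand). It had counts of 514, 405, 396, 332 and 367 in control and 644, 423, 530.3, 624 and 613 in MSC joints. MSC joint 2 was within the control range and the other MSC joints were above it. The means were 403 ± 68.4 and 567 ± 91.5 (SD, n = 5 each), a difference of 0.49 on the log2 scale (SE 0.15, unadjusted limma p = 0.00425, FDR = 0.31, exact permutation p = 0.0159) that kept its side of the threshold in every setting. Its receptors did not pass: Tnfrsf13c (the BAFF receptor) differed by 0.05 (p = 0.858, exact permutation p = 0.817), Tnfrsf13b by 0.04 (p = 0.823, exact permutation p = 0.849) and Tnfrsf17 (BCMA, a plasma cell receptor) by -0.44 (p = 0.261, exact permutation p = 0.31). The B cell marker list, with 8 of 8 genes measured, had 0 genes past an unadjusted p of 0.05 in this comparison, and its summed level ran over 10911 to 16264 in control and 9669.8 to 17480.0 in MSC joints.

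Fas, the death receptor for Fas ligand (ENSMUSG00000024778, chr19:34268066-34305173, plus strand), had counts of 362, 323, 318, 359.8 and 249.7 in control and 476, 482, 388, 415 and 323 in MSC joints. MSC joint 5 fell within the control range and the other MSC joints were above it. The means were 322 ± 45.5 and 417 ± 66.1 (SD, n = 5 each), and the difference was 0.37 on the log2 scale (SE 0.14, unadjusted limma p = 0.0182, FDR = 0.444, exact permutation p = 0.0317). The p exceeded 0.05 without control joint 5 (0.28), MSC joint 1 (0.31) or MSC joint 2 (0.31), where the brackets give the log2 difference.

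Ltb, a lymphotoxin chain made by lymphocytes (ENSMUSG00000024399, chr17:35413415-35415297, plus strand), had 1301, 1136, 1248, 558 and 942 in control and 1661, 1071, 1577, 1429 and 1147 in MSC joints. Control joint 4 was the lowest of all 20 joints, and MSC joints 2 and 5 lay within the control range. The difference was 0.45 on the log2 scale (SE 0.20, unadjusted limma p = 0.041, FDR = 0.563, exact permutation p = 0.0873). It lost p of at most 0.05 without control joint 4 (0.24), control joint 5 (0.43), MSC joint 1 (0.38), MSC joint 3 (0.39) or MSC joint 4 (0.43) and when only these 2 groups were fitted. Exons of Ltb overlap the antisense gene Gm65873.

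Tnfsf14, or LIGHT, which binds Tnfrsf14 and Ltbr (ENSMUSG00000005824, chr17:57496492-57501178, minus strand), had 606, 474, 381, 287 and 437 in control and 728, 422, 745, 663 and 447 in MSC joints. Again MSC joints 2 and 5 were within the control range, and the other 3 were above it. The difference was 0.46 on the log2 scale (SE 0.21, unadjusted limma p = 0.0443, FDR = 0.574, exact permutation p = 0.0952). It became 0.74 without both MSC joints 2 and 5, a choice made after seeing the data. Leaving out these 2 joints, the lowest of their group, can only raise the difference. It lost p of at most 0.05 without control joint 3 (0.42), control joint 4 (0.32), control joint 5 (0.47), MSC joint 1 (0.38), MSC joint 3 (0.37) or MSC joint 4 (0.41) and with these 2 groups fitted alone. Exons of Tnfsf14 overlap the gene Gm65552, annotated on the other strand. Its receptors Tnfrsf14 (0.08, p = 0.727, exact permutation p = 0.786) and Ltbr (0.03, p = 0.812, exact permutation p = 0.857) did not pass. The count of members called in this comparison was 2 without control joint 5 or MSC joint 1 and 3 without control joint 4, MSC joint 3 or MSC joint 4. Of the 8 neutrophil markers 5 were higher in MSC joints at an unadjusted p of at most 0.05 (median log2 fold change 0.50), with the ranges given above, and their part in these results was not tested.

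**Figure D3:**
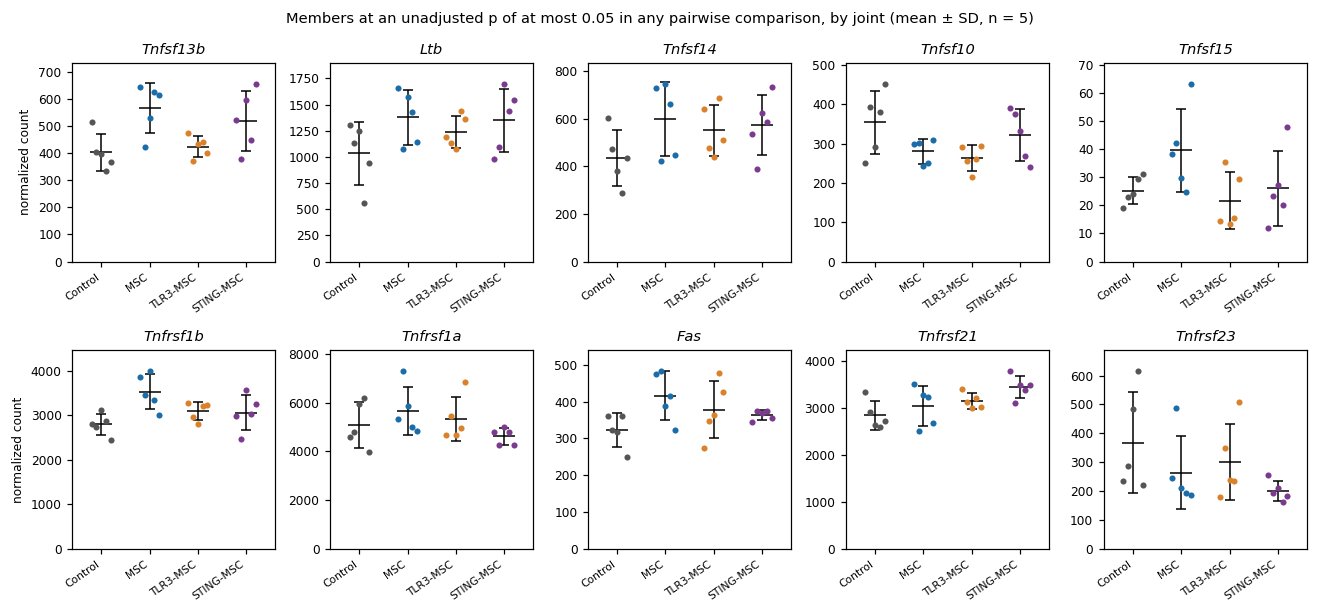
Normalized counts (linear axes from 0) of the 10 members with an unadjusted limma p of at most 0.05 in any pairwise comparison, by group, with 1 point per joint and bars for mean ± SD (n = 5 joints). Tnfsf13b runs from 332 to 514 in control and from 423 to 644 in MSC joints, and in every panel the groups overlap.

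STING-MSC joints were compared with control joints to see what injection of STING-activated cells in saline did beyond needle insertion. At an unadjusted p of at most 0.05, 3 members differed (8.57%, beside 12.2% of all genes), with Tnfrsf21 and Tnfsf13b higher and Tnfrsf23 lower. In the higher direction this was 5.71% of members beside 6.54% of all genes, and in the lower direction 2.86% beside 5.69%. The smallest FDR among members was 0.307 in limma, 0.30 in edgeR and 0.126 in DESeq2. No groups of a member stood apart without overlap (2.17% of all genes did). The median log2 fold change was 0.02 over the members and 0.01 over all genes.

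Tnfrsf21, death receptor 6 (ENSMUSG00000023915, chr17:43327446-43400081, plus strand), had counts of 3338, 2909, 2648, 2592 and 2730.4 in control and 3784, 3106, 3495, 3386 and 3493 in STING-MSC joints. All STING-MSC joints except joint 2 lay above the highest control joint. With means of 2843 ± 301 and 3453 ± 244 (SD, n = 5 each), the difference was 0.28 on the log2 scale (SE 0.09, unadjusted limma p = 0.00617, FDR = 0.307, exact permutation p = 0.0159), and p stayed at or under 0.05 in every setting. In TLR3-MSC joints it had 3418, 3124, 2999, 3213 and 3022, which gave 0.15 against control (p = 0.109, exact permutation p = 0.0794). Neutrophil markers also moved here, with 6 of 8 higher in STING-MSC than in control joints at an unadjusted p of at most 0.05 (median log2 fold change 0.49). Of 5 endothelial markers, 3 were lower in the same comparison (median log2 fold change -0.51), with summed levels of 6928.4 to 12168 in control and 6033.6 to 8512 in STING-MSC joints and none at 0. The part of either list in the members' differences was not tested.

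Tnfsf13b had 521, 379, 595, 447 and 653 in STING-MSC joints. Joints 1, 3 and 5 were above the control range, and joints 2 and 4 were within it. The difference from control was 0.35 on the log2 scale (SE 0.15, unadjusted limma p = 0.0302, FDR = 0.378, exact permutation p = 0.0873), with p above 0.05 when fitted with control alone or without control joint 4 (0.29), control joint 5 (0.32), STING-MSC joint 1 (0.35), STING-MSC joint 3 (0.30) or STING-MSC joint 5 (0.26). Tnfrsf23, a receptor of TRAIL without a death domain (ENSMUSG00000037613, chr7:143219546-143239610, minus strand), had counts of 233, 285, 485, 615 and 222 in control and 256, 193, 211, 161 and 183 in STING-MSC joints. Control joints 3 and 4 stood above the other controls, and STING-MSC joint 1 lay within the control range. Its difference was -0.76 on the log2 scale (SE 0.32, unadjusted limma p = 0.0275, FDR = 0.374, exact permutation p = 0.0317), and the p exceeded 0.05 without control joint 3 (-0.63), control joint 4 (-0.55) or STING-MSC joint 4 (-0.69). Exons of Tnfrsf23 overlap the gene E230032D23Rik, which also overlaps its neighbours Tnfrsf22 and Tnfrsf26. The fibroblast and synovial lining markers, with which Tnfrsf23 moved across joints (at most 361350 in summed level in the STING-MSC joints and 344510 to 1139400 in control), had 1 of 7 genes lower by the unadjusted threshold and a median log2 fold change of -0.89, and their part in the difference was not tested. Called members in this comparison numbered 1 without control joint 4 and 6 without control joint 1 or STING-MSC joint 2, and 5 without both MSC joints 2 and 5.

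Between TLR3-MSC and control joints, which asks the same of cells activated through TLR3, 1 member differed at an unadjusted p of at most 0.05, the ligand Tnfsf10 (lower in TLR3-MSC joints; 2.86% of members, beside 3.58% of all genes, with 2.68% higher and 0.906% lower), and the smallest FDR was 1.000 in limma and 0.880 in DESeq2. Tnfsf10 encodes TRAIL (ENSMUSG00000039304, chr3:27371177-27396577, plus strand), and its counts were 252, 393, 293, 382 and 451 in control, 291, 256, 214, 262 and 294 in TLR3-MSC, 300.2, 301, 243, 249.7 and 309 in MSC and 392, 377, 332, 269 and 242 in STING-MSC joints. Control joints 2, 4 and 5 were higher than every TLR3-MSC joint, whereas control joints 1 and 3 lay among them. The difference was -0.40 on the log2 scale (SE 0.16, unadjusted limma p = 0.0229, FDR = 1.000, exact permutation p = 0.0873), and p exceeded 0.05 without control joint 2 (-0.36), control joint 4 (-0.37), control joint 5 (-0.31) or TLR3-MSC joint 3 (-0.33). Its receptor Tnfrsf10b (death receptor 5) differed by 0.05 (p = 0.872, exact permutation p = 0.913). The count of called members was 0 without control joint 2, control joint 5 or TLR3-MSC joint 3, 2 without control joint 4, TLR3-MSC joint 1 or TLR3-MSC joint 5 and 3 without control joint 1, and 3 without both MSC joints 2 and 5, which enter this comparison only through the shared spread. The median log2 fold change was 0.03 over the members and -0.01 over all genes, and 0.825% of all genes but no member had groups without overlap.

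Activation through the STING pathway was then compared with no activation. STING-MSC joints were lower than MSC joints in 2 members, the TNF receptors Tnfrsf1b and Tnfrsf1a (5.71%, beside 4.94% of all genes, with 2.77% higher and 2.17% lower), with FDR values of 0.938. Tnfrsf1a (ENSMUSG00000030341, chr6:125326325-125339448, plus strand) had 5320.5, 7277, 5870.2, 4982 and 4837 in MSC and 4774, 4271, 4989, 4780.1 and 4238 in STING-MSC joints. MSC joint 2 was the highest of all 20 joints, and all STING-MSC joints but joint 3 lay under the lowest MSC joint. The difference was -0.28 on the log2 scale (SE 0.13, unadjusted limma p = 0.0492, FDR = 0.938, exact permutation p = 0.0238), and p exceeded 0.05 without MSC joint 1 (-0.30), MSC joint 2 (-0.19), MSC joint 3 (-0.26), STING-MSC joint 1 (-0.30), STING-MSC joint 2 (-0.26), STING-MSC joint 4 (-0.30) or STING-MSC joint 5 (-0.25), and without both MSC joints 2 and 5 (-0.23). Control joints, with 4565, 4777, 5937, 6182 and 3951, overlapped both groups. Tnfrsf1b differed by -0.21 on the log2 scale (SE 0.10, unadjusted limma p = 0.0415, FDR = 0.938, exact permutation p = 0.111), and the p was above 0.05 with these 2 groups alone or without MSC joint 1 (-0.18), MSC joint 2 (-0.22), MSC joint 3 (-0.17), STING-MSC joint 1 (-0.20), STING-MSC joint 2 (-0.14) or STING-MSC joint 4 (-0.21). Exons of Tnfrsf1a overlap Plekhg6 on the other strand. The number of called members was 0 without MSC joint 2, STING-MSC joint 1 or STING-MSC joint 4, 1 without MSC joint 1, MSC joint 3 or STING-MSC joint 2 and 4 without MSC joint 4, and no member (1.05% of all genes) had groups without overlap. The median log2 fold change was -0.04 over the members and 0.02 over all genes.

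Activation through TLR3 was compared with no activation in the same way, and the 2 members that passed were ligands that were lower in TLR3-MSC joints (5.71%, beside 3.88% of all genes, with 1.89% higher and 1.99% lower). Tnfsf13b had 474, 372, 433, 441 and 399 in TLR3-MSC joints, and MSC joint 2 alone among MSC joints lay within that range. The difference from MSC was -0.41 on the log2 scale (SE 0.15, unadjusted limma p = 0.0143, FDR = 0.978, exact permutation p = 0.0317), and it kept p at or under 0.05 in every setting. Tnfsf15, the ligand of death receptor 3 (ENSMUSG00000050395, chr4:63642840-63663351, minus strand), had low counts of 38.2, 42.1, 29.8, 24.7 and 63.1 in MSC and 14.3, 35.6, 13.4, 15.5 and 29.4 in TLR3-MSC joints. TLR3-MSC joints 1, 3 and 4 lay under every MSC joint, while joints 2 and 5 were among them. The difference was -0.88 on the log2 scale (SE 0.35, unadjusted limma p = 0.0213, FDR = 0.978, exact permutation p = 0.0556), and the p exceeded 0.05 without MSC joint 5 (-0.70), TLR3-MSC joint 1 (-0.77) or TLR3-MSC joint 3 (-0.75), or without both MSC joints 2 and 5 (-0.58). Its exons overlap the antisense gene Gm11482. Its receptor Tnfrsf25 (death receptor 3) differed by -0.05 (p = 0.84, exact permutation p = 0.897). Called members numbered 1 without TLR3-MSC joint 3 and 4 without MSC joint 2, and 5 without both MSC joints 2 and 5. The median log2 fold change was -0.09 over the members and 0.03 over all genes, and 0.581% of all genes but no member had groups without overlap.

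STING-MSC and TLR3-MSC joints, which received cells activated by different agonists, had 0 members past an unadjusted p of 0.05 in limma (beside 2.57% of all genes, with 0.784% higher and 1.78% lower), and 0 with groups that did not overlap (beside 1.35%). The smallest p were those of Tnfrsf10b (-0.58, p = 0.071, exact permutation p = 0.0159), Tnfsf13b (0.27, p = 0.0888, exact permutation p = 0.127) and Tnfrsf12a, the TWEAK receptor (-0.74, p = 0.0955, exact permutation p = 0.127), which are named here after their values were seen. Tnfrsf10b had 91.9, 120.5, 95.2, 109.8 and 198 in TLR3-MSC and 85.2, 74.6, 93.9, 60.0 and 85.4 in STING-MSC joints, and all STING-MSC joints but joint 3 were under the lowest TLR3-MSC joint. Fibroblast and synovial lining markers, with which Tnfrsf10b (r = 0.66) and Tnfrsf12a (r = 0.80) varied across joints, had a median log2 fold change of -0.95 here, with 1 of 7 genes lower by the unadjusted threshold. Keratinocyte markers had a median log2 fold change of -3.39, with 3 of 6 genes lower. They summed to 108.7 to 22896 in TLR3-MSC joints (median 169.8) and to 19.2 to 133 in STING-MSC joints (median 98.0). Krt5, Krt14, Krt1, Lor and Dsg1a were each at 0 in at least 1 of the 20 joints. The part of either list in these differences was not tested. On recovered reads, edgeR called 2 members at an unadjusted p of at most 0.05, Tnfrsf12a and Tnfrsf10b, and DESeq2 called 1, Tnfrsf12a. The 95% interval of the limma difference was -1.62 to 0.14 for Tnfrsf12a, so changes of more than 2-fold in this member were within the error. The count of called members was 1 without TLR3-MSC joint 1, TLR3-MSC joint 4, STING-MSC joint 2 or STING-MSC joint 5.

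Tnf itself did not pass in any comparison. It had 84.7, 109, 165, 53.9 and 63.3 in control, 133, 68.2, 152, 176 and 81.4 in MSC, 108, 85.7, 60.3, 130.5 and 142 in TLR3-MSC and 86.5, 111, 189.8, 98.7 and 237 in STING-MSC joints. STING-MSC joints 3 and 5 were the highest of the 20, the other STING-MSC joints lay among the controls, and control joint 3 was above all other controls. The difference of STING-MSC from control was 0.60 on the log2 scale (SE 0.35, unadjusted limma p = 0.104, FDR = 0.503, exact permutation p = 0.159), with a 95% interval from -0.14 to 1.34. Without control joint 3 it was 0.83, with an unadjusted limma p under the threshold. MSC differed from control by 0.38 (p = 0.293, exact permutation p = 0.333) and TLR3-MSC by 0.20 (p = 0.581, exact permutation p = 0.603). The within-group SD of Tnf was 0.59 on the log2 scale, against 0.15 for Tnfrsf1b and 0.22 for Tnfrsf1a.

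Fasl, the ligand of Fas, had 22.2, 14.5, 26.4, 8.22 and 23.1 in control, 16.1, 16.8, 33.8, 15.7 and 0 in MSC, 20.2, 20.2, 13.4, 14.5 and 7.91 in TLR3-MSC and 14.4, 17.1, 24.0, 16.2 and 15.3 in STING-MSC joints. Tnfrsf9, the co-stimulatory receptor 4-1BB, had 43.4, 42.3, 82.9, 55.7 and 38.1 in control, 78.4, 76.6, 53.7, 53.6 and 0 in MSC, 69.1, 50.9, 93.8, 43.5 and 78.0 in TLR3-MSC and 61.6, 42.8, 58.4, 71.2 and 52.8 in STING-MSC joints. Both were listed at 0 in MSC joint 5 alone, and the other MSC joints overlapped the other groups. Neither passed in any comparison, and the largest fitted differences, 1.21 for Tnfrsf9 between TLR3-MSC and MSC and -0.73 for Fasl between MSC and control, include that value and are no measure of size.

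None of the lymphocyte co-stimulatory receptors passed in any comparison (0 of 6 members: Cd27, Cd40, Tnfrsf4, Tnfrsf8, Tnfrsf9 and Tnfrsf18). Cd27, a receptor of T and memory B cells, had the smallest p among them, with 133, 137, 123, 90.4 and 134 in control and 149, 136, 161, 137 and 164 in STING-MSC joints (0.28, p = 0.118, exact permutation p = 0.0159). Cd40, through which T cells help B cells, averaged 268 in control, 281 in MSC, 277 in TLR3-MSC and 310.1 in STING-MSC joints. The BAFF and APRIL receptors did not pass either (0 of 3), with Tnfrsf13b at 912, 929, 904 and 952 and Tnfrsf13c at 487, 514, 409 and 474 in the same order. Among the receptors listed as stromal and ectodermal (0 of 3), Tnfrsf12a was the most variable, from 331 to 1870 normalized counts over the 20 joints. Tnfrsf19 (TROY) was among the steadiest, from 776 to 1130.0, and its difference of TLR3-MSC from control was -0.20 (p = 0.0583, exact permutation p = 0.0317).

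The members not covered so far did not pass in any comparison. Among the ligands, Lta (lymphotoxin alpha) ran from 6.11 to 28.8 normalized counts over the 20 joints, Tnfsf8 (CD30 ligand) from 12.2 to 97.7, Tnfsf9 (4-1BB ligand) from 11.3 to 37.4, Tnfsf12 from 136 to 337 and Tnfsf13 (APRIL) from 6.11 to 27.1. Their smallest unadjusted limma p in any comparison was 0.14 (exact permutation p = 0.198), for Tnfsf12 in STING-MSC against control, with a log2 difference of -0.30. Among the receptors, Ltbr ran from 1491 to 2527 and Tnfrsf14 from 1656 to 3459, and both had groups that overlapped in full or in part in every comparison. The decoy-type receptors Tnfrsf22 and Tnfrsf26, neighbours of Tnfrsf23 on chromosome 7, ran from 93.7 to 184 and from 134 to 251. Tnfrsf25 ran from 65.6 to 205, with its highest value in MSC joint 2. Tnfrsf4 (OX40), Tnfrsf8 and Tnfrsf18 (GITR) ran from 20.4 to 91.1, from 22.8 to 42.8 and from 24.2 to 54.2, and Tnfrsf17 from 7.12 to 38.6. Eda2r, a receptor of ectodysplasin, ran from 234 to 653. The smallest unadjusted limma p among these 10 receptors was 0.072 (exact permutation p = 0.0794), for Tnfrsf26 in TLR3-MSC against MSC, with a log2 difference of -0.29. By role, the median log2 fold change of MSC against control was 0.18 over the 12 ligands, 0.12 over the 4 TNF and lymphotoxin receptors, 0.18 over the 4 death domain receptors, 0.12 over the 3 decoy-type receptors, -0.02 over the 6 co-stimulatory receptors, 0.04 over the 3 BAFF and APRIL receptors and -0.06 over the 3 stromal and ectodermal receptors, beside -0.04 over all genes.

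Genes downstream of the receptors were counted from 4 lists, to be read beside the shares of all genes that passed the same threshold, which were 5.64% higher and 2.91% lower in MSC against control, 2.68% and 0.906% in TLR3-MSC against control, 6.54% and 5.69% in STING-MSC against control, 2.77% and 2.17% in STING-MSC against MSC, 1.89% and 1.99% in TLR3-MSC against MSC and 0.784% and 1.78% in STING-MSC against TLR3-MSC. Among 21 adaptors and death complex genes, 2 were higher and 0 lower in MSC than in control joints at an unadjusted p of at most 0.05, Traf5 (468 ± 73.6 against 353 ± 58.4 normalized counts, SD; log2 difference 0.41, FDR = 0.34) and Birc3, an inhibitor of apoptosis (0.27, FDR = 0.513). Cflar, the inhibitor of caspase 8 activation, was the single gene of the list that passed between TLR3-MSC and control (0.24, FDR = 1.000). Among 13 NF-kB kinases and subunits, 2 were higher and 1 lower in MSC than in control joints. The subunit Rel had 1179 ± 197 against 869.7 ± 90.9 normalized counts (0.43, FDR = 0.289), and the kinase Ikbkb differed by 0.21 (FDR = 0.382). Between STING-MSC and MSC joints 2 of the 13 were higher and 1 lower, and Tab1, a partner of the kinase TAK1, had the smallest p (0.37, FDR = 0.539). Of 16 TNF-induced and feedback genes, 3 were higher in MSC than in control joints, Nfkbiz among them (0.33, FDR = 0.52), whereas 0 were lower. In this list 2 genes were lower in STING-MSC than in MSC joints and 2 in TLR3-MSC than in MSC joints. Bcl3, an atypical IkB protein, had 752 ± 129.8 normalized counts in MSC and 438 ± 62.6 in STING-MSC joints (-0.77, FDR = 0.539), and Nfkbia, which encodes the inhibitor IkB alpha, was lower in TLR3-MSC than in MSC joints (-0.37, FDR = 0.978). Of 8 genes of ectodomain shedding, Rhbdf2, a partner of the TNF-releasing protease, was higher in MSC than in control joints (0.35, FDR = 0.329) and Timp3, an inhibitor of that protease, was lower (-0.50, FDR = 0.574), while Sppl2b, which cleaves the TNF stalk in the membrane, differed between STING-MSC and control joints by 0.36 without passing the threshold (FDR = 0.445). The remaining counts were small. In STING-MSC against control joints 1 adaptor, 1 NF-kB gene and 1 shedding gene were higher and 0 genes of the 4 lists were lower, in TLR3-MSC against MSC joints 1 NF-kB gene was higher and 2 were lower beside 1 lower shedding gene, and in STING-MSC against TLR3-MSC joints 1 TNF-induced gene was lower. For MSC against control, the median log2 fold change was 0.04 over the adaptors, -0.04 over the NF-kB genes, 0.08 over the TNF-induced genes and -0.06 over the shedding genes, beside -0.04 over all genes. 

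Within groups, the levels of many members varied with those of blood cell or stromal markers. Levels of each member were compared with the mean log2 level of 6 marker lists over the 20 joints after group means were subtracted. The p-values came from 100000 permutations within groups, of which the smallest possible is 1e-05, and were adjusted over all 210 pairs. Of these pairs, 48 had an adjusted p of at most 0.05 by Pearson's r and 46 by Spearman's rho. Values named as varying with a list passed by r unless stated otherwise.

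Among the genes of lymphocytes, Tnfrsf13c varied with the B cell markers (r = 0.96, permutation p = 1e-05, adjusted 0.000525, rho = 0.95, permutation p = 1e-05, adjusted 0.0007, r = 0.94 without the 2 farthest joints). Tnfrsf13b did likewise (r = 0.93, permutation p = 1e-05, adjusted 0.000525, rho = 0.89, permutation p = 1e-05, adjusted 0.0007, r = 0.91 without the 2 farthest joints). Both encode receptors that B cells carry, and the joints farthest in B cell markers were control joint 4 and MSC joint 2. Ltb varied with T and NK cell markers (r = 0.88, permutation p = 1e-05, adjusted 0.000525, rho = 0.82, permutation p = 2e-05, adjusted 0.00105, r = 0.84 without the 2 farthest joints) and with B cell markers (r = 0.85). Tnf had r = 0.77 with B cell, 0.76 with T and NK cell and 0.69 with neutrophil markers. Tnfrsf17 varied with plasma cell markers (r = 0.67, rho = 0.68). The relations of Cd27 (r from 0.75 to 0.53), Tnfrsf4 (r from 0.73 to 0.50) and Fasl (r from 0.62 to 0.32) with the plasma cell markers weakened when control joint 4 and MSC joint 5, the farthest in those markers, were left out.

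Tnfsf14 varied most closely with the neutrophil markers (r = 0.95, permutation p = 1e-05, adjusted 0.000525, rho = 0.91, permutation p = 1e-05, adjusted 0.0007, r = 0.94 without the 2 farthest joints), and with the same list Tnfrsf21 had r = 0.84, Ltb r = 0.80 and Tnfsf13b r = 0.73. These 4 genes are among those that were higher in MSC or STING-MSC than in control joints, where neutrophil markers were higher too. By r, Tnfrsf21 passed with the neutrophil list alone. Tnfsf14 also varied with B cell (r = 0.79) and T and NK cell markers (r = 0.80), and Tnfsf13b with B cell markers (r = 0.71, adjusted permutation p = 0.0235). Of the B cell and the T and NK cell markers, 0 were higher in MSC or STING-MSC than in control joints by the unadjusted threshold. In STING-MSC joints 1 B cell marker was lower. Tnfrsf13b (r = 0.79), Tnfrsf14 (0.75), Tnf (0.69), Tnfrsf13c (0.66), Tnfrsf26 (0.66) and Cd27 (0.65) also passed with the neutrophil list. None of these passed the unadjusted limma threshold in any comparison of groups, and the part of neutrophil markers in the differences was not tested. For Fas, no relation with any of the 6 lists passed by r or by rho. Tnfrsf1b passed with none of them by r, and with the B cell markers by rho alone (r = 0.55, permutation p = 0.0393, adjusted 0.116, rho = 0.67, permutation p = 0.00629, adjusted 0.0361, r = 0.69 without the 2 farthest joints). Ltbr varied with the fibroblast and synovial lining markers (r = 0.83, permutation p = 9e-05, adjusted 0.00262, rho = 0.78, permutation p = 0.00048, adjusted 0.00667, r = 0.78 without the 2 farthest joints), as did Tnfrsf25 (r = 0.83), Tnfrsf12a (r = 0.80), Tnfrsf23 (r = 0.76) and Tnfrsf1a (r = 0.75). Tnfrsf14 (r = -0.76), Tnfsf14 (r = -0.72) and Tnfsf13b (r = -0.65) ran opposite to that list. Tnfrsf19, listed as a stromal and ectodermal receptor, did not pass with the fibroblast list (r = -0.59, adjusted permutation p = 0.0799). It passed with T and NK cell (r = 0.77) and plasma cell markers (r = 0.58). Tnfsf12 was the single member past the threshold with the macrophage markers (r = 0.80, permutation p = 0.00016, adjusted 0.00305, rho = 0.79, permutation p = 0.0002, adjusted 0.00382, r = 0.74 without the 2 farthest joints). It also passed by r, but not by rho, with the fibroblast and synovial lining markers (r = 0.69, adjusted permutation p = 0.0141, rho = 0.58, adjusted permutation p = 0.0644). Members and markers were measured in the same libraries, so these values share their source. Without control joint 4, the count of pairs past the threshold was 31.

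**Figure D4:**
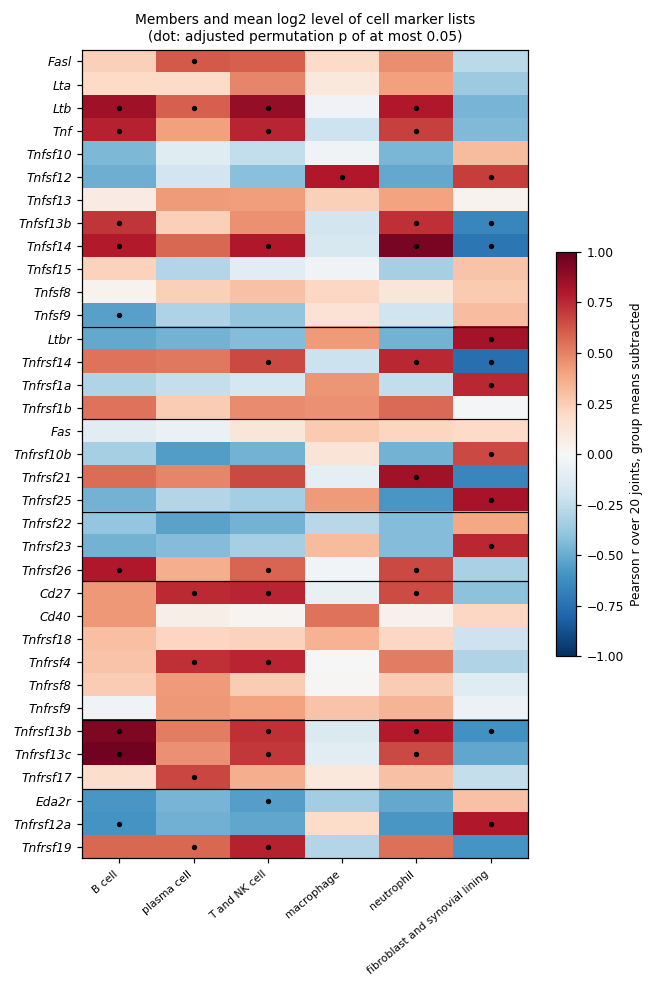
Pearson r (colour) of each member with the mean log2 level of 6 cell marker lists over 20 joints, group means subtracted, with a dot where the adjusted permutation p is at most 0.05. The 48 dots include 10 with neutrophil markers, all positive, and 7 positive and 4 negative ones with fibroblast and synovial lining markers.

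Pairs of members were compared in the same way, in an analysis added after the data had been seen. Of 595 pairs, 44 had an adjusted permutation p of at most 0.05, 38 with a positive and 6 with a negative r, and 37 of the 44 also passed by Spearman's rho. They involved 20 members. Ltbr and Tnfrsf23 had the closest relation (r = 0.96, permutation p = 1e-05, adjusted 0.00331, rho = 0.92, permutation p = 5e-05, adjusted 0.0119, r = 0.93 without the 2 farthest joints), and Tnfrsf1a followed both (r = 0.91 with each). With Tnfrsf12a (r = 0.84 with Ltbr), Tnfrsf25 (0.79) and Tnfrsf10b (0.77), these were receptors that also moved with the fibroblast markers. MSC joint 2 and TLR3-MSC joint 5 were the highest of their groups in all 6 of them. Exons of Tnfrsf1a, Tnfrsf12a, Tnfrsf25 and Tnfrsf23 overlap genes on the other strand (Plekhg6, Hcfc1r1, Espn and E230032D23Rik). The part of those genes in these relations was not tested. Among the members of leukocytes, Tnfrsf13b moved with Tnfrsf13c (r = 0.89, rho = 0.87) and with Ltb (r = 0.88, rho = 0.86), and Tnf moved with Tnfrsf13c (r = 0.81, rho = 0.82), each with an adjusted permutation p of 0.00331. Tnfsf14 had the most partners, 9, among them Tnfrsf14 (r = 0.85) and Tnfrsf21 (r = 0.84). The strongest negative relation was that of Tnfrsf12a with Tnfrsf14 (r = -0.85, permutation p = 0.00015, adjusted 0.00744, rho = -0.84, permutation p = 0.00017, adjusted 0.0119, r = -0.81 without the 2 farthest joints).

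Pairs of a ligand and its own receptor were read from the same values. Of 20 known ligand and receptor pairs, 2 passed, Tnfsf14 with Tnfrsf14 (r = 0.85) and Tnfsf13b with Tnfrsf13b (r = 0.73), beside 7.39% of all 595 pairs. Tnf had r = 0.61 with Tnfrsf1b (adjusted permutation p = 0.106) and r = 0.03 with Tnfrsf1a (adjusted permutation p = 0.947). Fasl had r = 0.19 with Fas (adjusted permutation p = 0.756), and Tnfsf10 had r = 0.17 with Tnfrsf10b (adjusted permutation p = 0.776). Position in the genome was shared by several members, and 13 pairs lie within 100 kb of each other. Of these, Ltbr and Tnfrsf1a, 35476 bases apart on chromosome 6, and Ltb and Tnf, 3060 bases apart on chromosome 17, passed (r = 0.91 and 0.77). Tnfsf13 and Tnfsf12, 465 bases apart on chromosome 11, had r = 0.10 (adjusted permutation p = 0.871). Exons of both overlap Tnfsfm13 on the same strand, and its part in their r was not tested. Tnf and Lta, 1157 bases apart, had r = 0.38 (adjusted permutation p = 0.372). Tnfrsf26 and Tnfrsf23, 37086 bases apart on chromosome 7, had r = -0.23 (adjusted permutation p = 0.634).

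**Figure D5:**
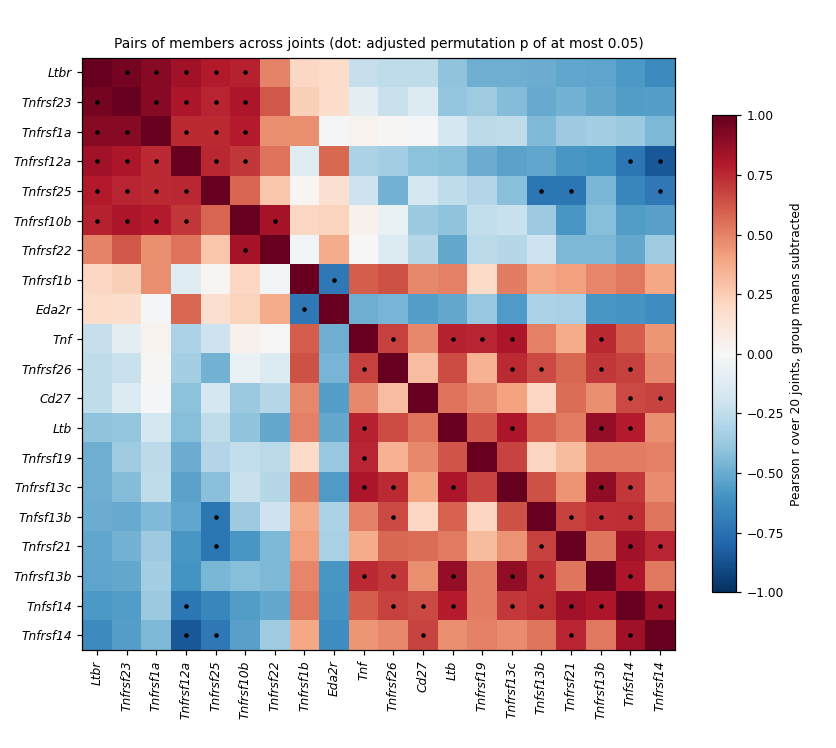
Pearson r (colour) between the 20 members with at least 1 pair past the threshold, over 20 joints with group means subtracted and ordered by r with Ltbr, with a dot where the adjusted permutation p is at most 0.05. Ltbr, Tnfrsf23, Tnfrsf1a, Tnfrsf12a, Tnfrsf25 and Tnfrsf10b form the upper left block, and Tnfrsf12a with Tnfrsf14 has the lowest r, -0.85.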

How the data were processed

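Poly(A)-enriched RNA from 20 operated mouse joints, 5 in each of 4 groups taken from the submitters' labels, had been sequenced as 1 library per joint. The authors aligned the reads to GRCm39 with STAR 2.7.3a, counted them per gene with HTSeq and deposited a signal per gene, the count divided by a median-ratio size factor of the joint (the normalized count). No strand setting of the counting is given in the sources used here. Whole reads were recovered from the steps of the values, and 99.84 to 99.92% of values per joint came out whole within 0.1 read. Recovered totals were 27955496 to 52529972 reads per joint. Counting error was not modelled in the main test.

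The deposited values were tested as log2(value + 1), with no further filter on low values, by limma 3.58.1 (R 4.3.3, trended variance) over all 14793 genes and 20 joints, with Benjamini-Hochberg adjustment over all genes. The lowest mean of any deposited gene was 9.40 normalized counts, so genes of lower level are absent from the shares of all genes. Whether Tnfsf4, Cd40lg, Cd70 and Tnfsf18 were left out for low counts is not stated. Members were counted by an unadjusted p threshold of 0.05 and by an FDR threshold of 0.05. The procedure was tested on simulated data with known changes of 2-fold or more and a single setting of the spread for all genes. Changes as small as those of the called members were not covered. Genes were named if they were Tnf, Tnfrsf1a or Tnfrsf1b, passed in any comparison, were among the 3 ligands or 3 receptors highest per length, were listed at 0 in a joint, or had the 3 smallest p-values of a pathway list, and others were named after their values were seen. Members and lists were chosen with earlier results of these data known. Levels per kb used the union of all annotated exons of each gene in a GENCODE annotation of GRCm39. Its gene bounds differ from the deposited ones for some members, Eda2r and Tnfrsf17 among them, so rankings per kb depend on that choice. Alternatives were other pseudocounts, a filter on low values, quantile normalization, only the 2 groups compared, a replicate block, each joint left out, and edgeR 4.0.16 and DESeq2 1.42.0 on the recovered reads. Leaving out both MSC joints 2 and 5, the correlations between members and the list of ligand and receptor pairs were added after seeing the data.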

Additional observations from a re-analysis of the deposited data

Results flagged for a closer look

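In 64 groups of 5 joints (16 named members in 4 groups), 3 held a joint whose gap to its nearest neighbour exceeded 0.71 of the group's range, the 95% limit of Dixon's test, and chance alone marks about 1 group in 20. Fasl was 24.0 normalized counts in STING-MSC joint 3, with the next joint at 17.1. Ltbr was 2448 in MSC joint 2, with the next joint at 1810.2. Tnfrsf23 was 487 in MSC joint 2, with the next joint at 243.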

How the results depend on the processing

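Of the named differences, 16 were refitted under other settings (the 13 calls and the 3 differences of Tnf from control), and none of these 16 changed its sign. Of their 304 values, 253 kept their side of an unadjusted p of 0.05, 50 lost it and 1 gained it. The calls of Tnfrsf1b and Tnfsf13b in MSC against control, Tnfsf13b in TLR3-MSC against MSC and Tnfrsf21 in STING-MSC against control were kept in every setting. With only the 2 compared groups fitted, the count of called members was 3 in MSC against control (5 with all joints), 2 in TLR3-MSC against control (1), 1 in STING-MSC against MSC (2) and 1 in STING-MSC against TLR3-MSC (0). In the last comparison quantile normalization gave 1, edgeR 2 and DESeq2 1. Without both MSC joints 2 and 5 the counts were 3 in TLR3-MSC against control, 5 in STING-MSC against control (3), 5 in TLR3-MSC against MSC (2) and 5 across the 4 groups (3). With each joint left out in turn, counts ran from 2 to 6 in MSC against control, 0 to 3 in TLR3-MSC against control, 1 to 6 in STING-MSC against control, 0 to 4 in STING-MSC against MSC, 1 to 4 in TLR3-MSC against MSC, 0 to 1 in STING-MSC against TLR3-MSC and 2 to 4 across the 4 groups, and the relations with cell markers from 31 to 53. Apart from the settings that fit fewer joints, the cause was not tested.

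Over all genes, an FDR threshold of 0.05 was passed by 1 gene in limma, 15 in edgeR, 108 in DESeq2 and 425 in limma without both MSC joints 2 and 5 for MSC against control, by 85 in DESeq2 and 0 in the others for STING-MSC against control, and by 28, 7, 3 and 2 in DESeq2 for STING-MSC against MSC, TLR3-MSC against MSC, TLR3-MSC against control and STING-MSC against TLR3-MSC.

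The joints come from different mice, and same-numbered joints did not deviate together, with mean correlations from -0.14 to 0.11 over the 6 comparisons. With the replicate number as a block, the counts of called members were 4, 1, 3, 3, 2, 0 and 4 in the order above, where Ltb in MSC against control and Tnfrsf1a in STING-MSC against MSC passed the threshold no longer, and 62 relations with cell markers passed. With 5 joints in each group, an exact permutation test of a single member cannot give a p under 0.00794, and members under about 30 normalized counts, such as Lta and Fasl, are the ones in which depth limits precision most.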
